A study of Mus musculus with 9 samples.

Results

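Interferon-stimulated genes are the genes that cells switch on when interferon binds its receptors. The set described here holds 35 of them, chosen by gene symbol as a fixed list and found once each among the 55385 genes of the count table. It covers nucleic acid sensors, transcription factors, IFIT and OAS proteins, the ISG15 modifier and its protease, interferon-induced GTPases and other antiviral effectors. Of the 35 genes, 34 had enough counts to be tested among 15519 genes. Mx1, an antiviral GTPase, did not.

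RNA was sequenced from kidney cells of male mice, 9 to 12 weeks old and 25 to 30 g, sorted for the red fluorescent protein tdTomato. The d14 group (3 libraries) came from Sox9IRES-CreERT2/+:R26RtdT/+ mice that had bilateral ischemia-reperfusion injury (IRI, a transient stop of the kidneys' blood flow) and tamoxifen on days 10 and 12 after it, which labels cells with Sox9 on at that time. The 48 h group (3 libraries) came from mice of the same genotype, given tamoxifen when IRI was induced, with cells taken 48 h later. The uninjured group (3 libraries) came from Slc34a1IRES-CreERT2/+:R26RtdT/+ mice given tamoxifen, which labels proximal tubule cells. Sox9 is a transcription factor that tubule cells switch on after injury, and Slc34a1 makes a phosphate transporter typical of the proximal tubule. All groups carry a tamoxifen-inducible Cre recombinase and the tdTomato reporter in heterozygous form, and all cells passed the same cold protease digestion of cortex and outer medulla. The Cre allele, injury and tamoxifen schedule all differ from the Sox9 groups to the uninjured one, so their parts in a difference cannot be told apart, and timing of label and of injury change together between d14 and 48 h. Each library is labelled as a separate biological replicate. The labels do not say whether uninjured mice had sham surgery.

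Interferons are secreted proteins. Type I interferons (the interferon alphas and beta) and type III interferons (the lambdas) lead through JAK kinases to a complex that holds STAT2 and IRF9 and binds the interferon-stimulated response element (ISRE) in promoters. Type II interferon (gamma) acts through another element, the gamma-activated site (GAS). Many products of these genes bind foreign RNA, block translation or tag proteins. Sensors such as RIG-I can in turn start new interferon synthesis, and in the kidney such sensing can follow injury as well as infection.

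Promoters are shown because they carry the element by which interferon-stimulated genes are commonly recognised. The RefSeq promoter table (build GRCm38.p6, 250 bases before to 50 bases after each start, 300 bases in all) held 26 of the 35 genes. The ISRE core was searched as GAAANNGAAA, which reads TTTCNNTTTC on the other strand. It occurred in a promoter of 16 of these 26 genes (61.5%), against 1079 of all 27025 genes in the table (3.99%). The GAS letters TTCNNNGAA, which read the same on both strands, occurred in 8 of 26 genes (30.8%), against 2582 of 27025 genes (9.55%). A match is a run of letters and does not show that a factor binds there. The windows below run in the direction of transcription, 5′ to 3′, and capitals mark the matches to the ISRE core, merged where matches overlap. The first 4 windows are from effectors that are described further on, and the next 3 from IFIT genes, the last 3 from genes of which 1 (Gbp2) differed between d14 and 48 h and 2 (Igtp and Rsad2) passed no test.
Isg15: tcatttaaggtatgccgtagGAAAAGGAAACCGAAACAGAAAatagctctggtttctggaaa
Oas1a: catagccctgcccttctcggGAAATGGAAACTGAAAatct
Oas1g: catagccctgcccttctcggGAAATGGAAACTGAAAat
Bst2: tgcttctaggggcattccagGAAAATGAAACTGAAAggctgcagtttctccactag
Ifit1: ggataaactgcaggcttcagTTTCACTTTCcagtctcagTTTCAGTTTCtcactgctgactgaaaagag
Ifit3: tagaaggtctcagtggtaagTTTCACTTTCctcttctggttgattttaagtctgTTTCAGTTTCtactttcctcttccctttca
Ifit3b: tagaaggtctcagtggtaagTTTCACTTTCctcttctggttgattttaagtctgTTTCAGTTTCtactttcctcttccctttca
Gbp2: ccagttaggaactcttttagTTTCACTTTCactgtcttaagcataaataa
Igtp: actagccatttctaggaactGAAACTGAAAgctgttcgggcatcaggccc
Rsad2: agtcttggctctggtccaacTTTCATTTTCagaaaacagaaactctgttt

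The Isg15 window lies at chr4:156200855-156200916 (minus strand) and holds 3 overlapping matches, the first 78 bases before the start of the gene. The Oas1a window lies at chr5:120907526-120907565 (minus strand) and the Oas1g window at chr5:120887614-120887651 (minus strand), with the matches beginning 20 and 18 bases before the starts. These 2 promoters share the run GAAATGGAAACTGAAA. The Bst2 window lies at chr8:71537567-71537622 (minus strand). The Ifit1, Ifit3 and Ifit3b windows lie on the plus strand at chr19:34640765-34640833, chr19:34583353-34583436 and chr19:34607749-34607832. Each of these 3 holds a pair of separate matches, and the 84 bases shown for Ifit3 and Ifit3b have the same letters throughout. The Gbp2 window lies at chr3:142620584-142620633 (plus strand), that of Igtp at chr11:58199502-58199551 (plus strand) and that of Rsad2 at chr12:26456543-26456592 (minus strand).

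Total counts were 19239354 to 30414758 per library at d14, 8036054 to 23794029 at 48 h and 31585507 to 51631204 in uninjured cells. The shallowest library was 48 h replicate 2, in which 3 counts amount to 0.431 CPM (the standard depth-scaled count, here relative to the TMM-scaled library size), against 0.0651 to 0.168 CPM in the others. Sox9, by which the cells were labelled, was at 38.8, 32.1 and 28.8 CPM at d14, 7.57, 15.1 and 22.1 CPM at 48 h and 0.152, 0.0351 and 0.635 CPM in uninjured cells. Slc34a1 was at 994, 1620.5 and 1653 CPM at d14, 4404, 1147 and 1895 CPM at 48 h and 4796, 4626 and 4807 CPM in uninjured cells. The 12 proximal tubule markers summed to 3073 to 4304 CPM at d14, 5765 to 11534 CPM at 48 h and 17961 to 19629 CPM in uninjured cells, with no overlap between the uninjured group and the others. The 6 loop of Henle markers summed to 3016 to 5594 CPM at d14, 777 to 966 CPM at 48 h and 234 to 336 CPM in uninjured cells. The 7 principal cell markers summed to 474 to 688 CPM at d14, 319.8 to 379 CPM at 48 h and 59.6 to 81.2 CPM in uninjured cells, and the 7 intercalated cell markers to 215 to 237 CPM at d14, 78.7 to 97.1 CPM at 48 h and 18.5 to 29.1 CPM in uninjured cells. In bulk libraries fewer cells of a type and less RNA per cell cannot be told apart. All values below are CPM in the order of replicates 1, 2 and 3, fold changes are log2 values ± SE, and adjusted p values are from edgeR's quasi-likelihood test over all 15519 genes, with a gene said to rise or fall at adjusted p under 0.05.

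Most of the tested interferon-stimulated genes rose at d14, and fewer at 48 h, where the summed level of replicate 2 was in the uninjured range. At d14 20 of the 34 tested genes rose (58.8%) and 0 fell, against a background of 25.1% of all genes tested that rose and 20.7% that fell. At 48 h 16 rose (47.1%) and 0 fell, against 17.4% and 11.7% of all genes. No gene of the set fell at unadjusted p under 0.05 in either comparison, nor by DESeq2 or limma voom. The median log2 fold change over the 34 genes was 1.58 at d14, against 0.06 over all genes, and 1.42 at 48 h, against 0.02 over all genes. The filter on low counts kept 7 of these genes (Mx2, Zbp1, Oas1a, Oas1g, Oas2, Oas3 and Isg20) only through the Sox9 groups, since in no uninjured library did they pass its limit of 0.42 CPM. These 7 could only enter where they were higher, so the counts are over the 34 tested genes and not over the set. With every gene of at least 1 count tested, all 35 genes included, 19 rose at d14 (14.3% of all genes) and 18 at 48 h (10.1%). Both comparisons share the uninjured libraries. Without the TMM scaling the median of all genes at d14 moved to 0.63 and that of the set to 2.12, with 26 genes of the set higher and 0 lower, against 47.1% and 9.13% of all genes.

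**Figure D1:**
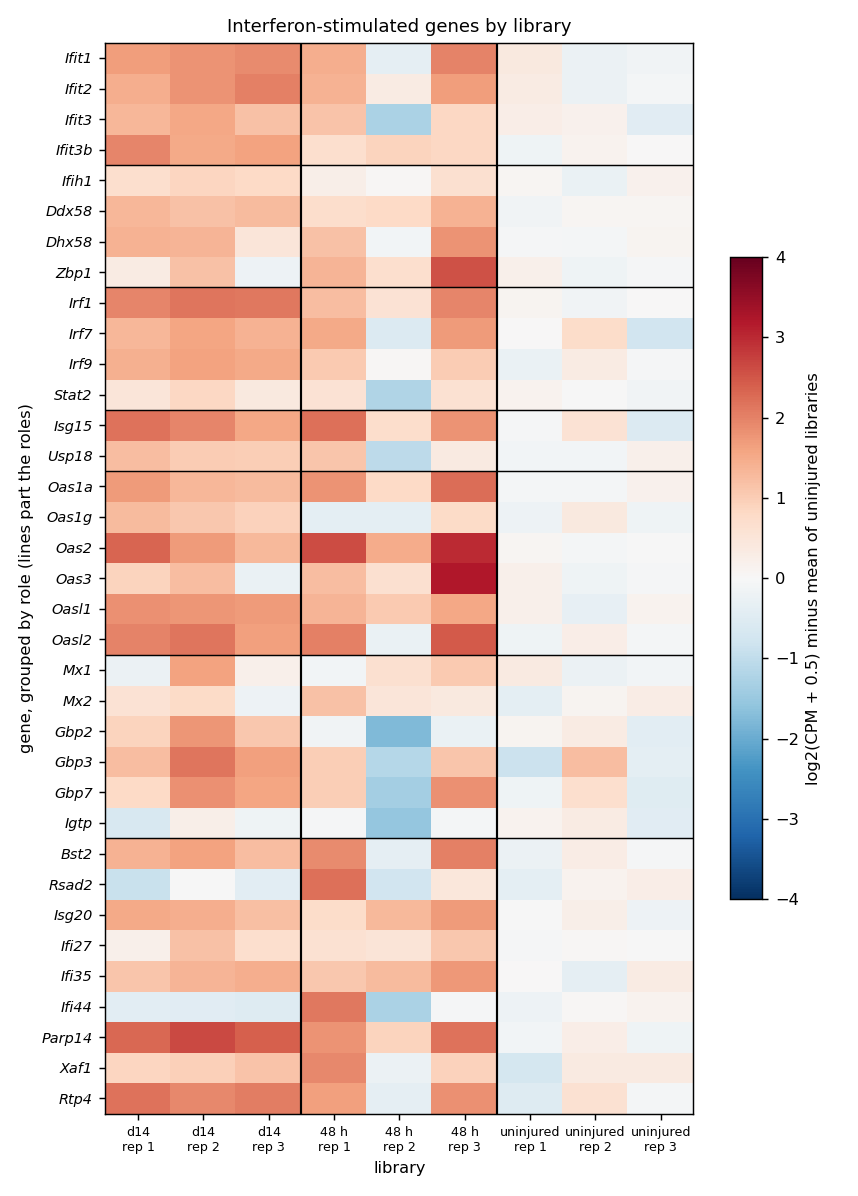
Each cell is the log2(CPM + 0.5) of a gene in a library minus the gene's mean over the 3 uninjured libraries, with genes in rows by role and libraries in columns. The d14 columns differ less from each other than the 48 h columns, where 48 h replicate 2 is paler or bluer than its neighbours in most rows.

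The 48 h libraries differed more among themselves than those of the other groups. The median SD between libraries, over the 34 genes on the log2(CPM + 0.5) scale, was 0.217 at d14, 0.880 at 48 h and 0.284 in uninjured cells, against 0.196, 0.314 and 0.177 over all genes. In the d14 group replicate 2 was the highest library for 18 of the 34 genes (52.9%, against 32% of all genes) and the lowest for 3 (8.82%, against 36% of all genes). In the 48 h group replicate 2 was the lowest library for 28 of the 34 genes (82.4%, against 42.8% of all genes), and replicate 3 was the highest for 23 (67.6%, against 32.3% of all genes). Set beside the uninjured libraries, 48 h replicate 2 lay above all 3 for 14 genes, below all 3 for 14 genes and among them for 6, while of all genes tested 37.8% lay above and 41.8% below. The 48 h values are therefore given library by library below. Without replicate 2, 24 genes of 35 tested rose at 48 h, against 17.2% of all genes. The added ones were Ifit1, Ifit3, Dhx58, Irf7, Stat2, Gbp7, Rsad2 and Rtp4. The count was 7 without 48 h replicate 3 (against 12.8% of all genes) or without uninjured replicate 3 (12.6%), and 8 without uninjured replicate 1 (12.3%). The d14 count was between 15 and 26 when any 1 of the 9 libraries was left out, against 19.9% to 26.9% of all genes.

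The summed level of the 35 genes was 300.1, 372 and 317 CPM at d14, 291, 142 and 339 CPM at 48 h and 128, 149 and 124 CPM in uninjured cells. The mean was 329.9 ± 37.8 CPM at d14, 257 ± 103 CPM at 48 h and 134 ± 13.4 CPM in uninjured cells (SD, n = 3 each). Every d14 library was above every uninjured library, and 48 h replicate 2 was within the uninjured range. Ddx58 held the largest part of the sum, and without it the means were 284 CPM at d14, 219.5 CPM at 48 h and 115 CPM in uninjured cells. The loop of Henle, principal cell and intercalated cell markers given above were also highest at d14 and lowest in uninjured cells. Markers of macrophages and monocytes and those of neutrophils showed another order. Those of macrophages and monocytes were highest at 48 h, with every d14 library above every uninjured one. Those of neutrophils were high at 48 h and overlapped between d14 and uninjured cells. T and NK cell markers had the set's order of means, with overlapping libraries. These means were 5.59 CPM at d14, 4.37 CPM at 48 h and 3.88 CPM in uninjured cells. The 15 macrophage and monocyte markers, led by Lyz2 and Csf1r, summed to 136, 170.2 and 78.6 CPM at d14, 218, 184 and 493 CPM at 48 h and 37.4, 43.2 and 34.3 CPM in uninjured cells, with none at 0 in any library except Chil3 in d14 replicate 2. Of these markers 8 of 15 rose at d14 and 9 of 15 at 48 h, against 25.1% and 17.4% of all genes. The 8 neutrophil markers, led by S100a9 and S100a8, summed to 4.72, 5.90 and 3.43 CPM at d14, 113, 211 and 343 CPM at 48 h and 2.80, 8.003 and 5.28 CPM in uninjured cells, with Mpo at 0 in all 9 libraries and Ly6g at 0 in all uninjured libraries and in 48 h replicate 1. Of the 5 tested neutrophil markers 1 (Mmp9) rose at d14, not above the 25.1% of all genes, and 5 at 48 h, against 17.4%. The part of these cell types in the levels of the interferon-stimulated genes was not tested.

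**Figure D2:**
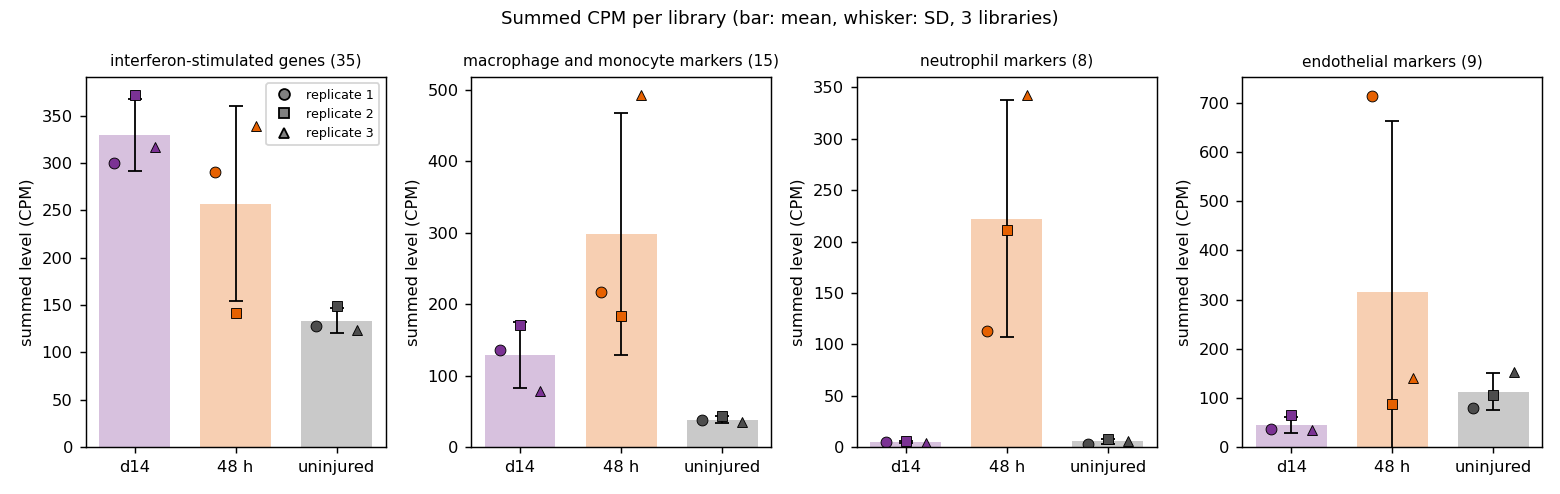
Summed CPM per library (points, by replicate) for the 35 interferon-stimulated genes and 3 marker lists, with bars for the mean and whiskers for the SD of 3 libraries; the lower whisker of endothelial markers at 48 h passes below 0 and is cut there. The interferon-stimulated genes are at 300.1 to 372 CPM at d14, above the 124 to 149 CPM of uninjured libraries, while 48 h replicate 2 is at 142 CPM.

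Dendritic cell markers, led by Bst1 and Itgax, summed to 5.55 to 13.6 CPM at d14 and 10.9 to 20.9 CPM at 48 h. In uninjured cells they summed to 2.93 to 3.45 CPM. Flt3, Xcr1, Clec9a, Cd209a, Siglech and Ccr9 were each at 0 in at least 1 library. Without Bst1 the sums overlapped between groups, at 4.15, 7.88 and 1.58 CPM at d14 and 7.91, 1.15 and 12.999 CPM at 48 h. Uninjured cells were then at 2.58, 3.02 and 3.07 CPM, above d14 replicate 3 and 48 h replicate 2. Of the 5 tested dendritic cell markers only Bst1 rose, at d14 and at 48 h, against 25.1% and 17.4% of all genes. T and NK cell markers, led by Gzma and Ccl5, summed to 4.37 to 6.73 CPM at d14, 3.98 to 4.60 CPM at 48 h and 2.67 to 5.02 CPM in uninjured cells. In these libraries 3 to 5 of the 12 T and NK markers were at 0 at d14, 4 to 7 at 48 h and 0 to 3 in uninjured cells. B cell markers, led by Cd79b and Cd79a, did not pass 1.67 CPM in any library, and fibroblast and mural markers, led by Rgs5 and Acta2, did not pass 23.2 CPM. Endothelial markers, led by Plvap and Kdr, summed to 36.6, 64.1 and 35.3 CPM at d14, 715, 87.7 and 140.3 CPM at 48 h and 79.2, 105 and 153 CPM in uninjured cells. The 48 h replicate 1 library stands apart here by its endothelial markers, and the part of that in its interferon-stimulated genes was not tested.

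**Figure D3:**
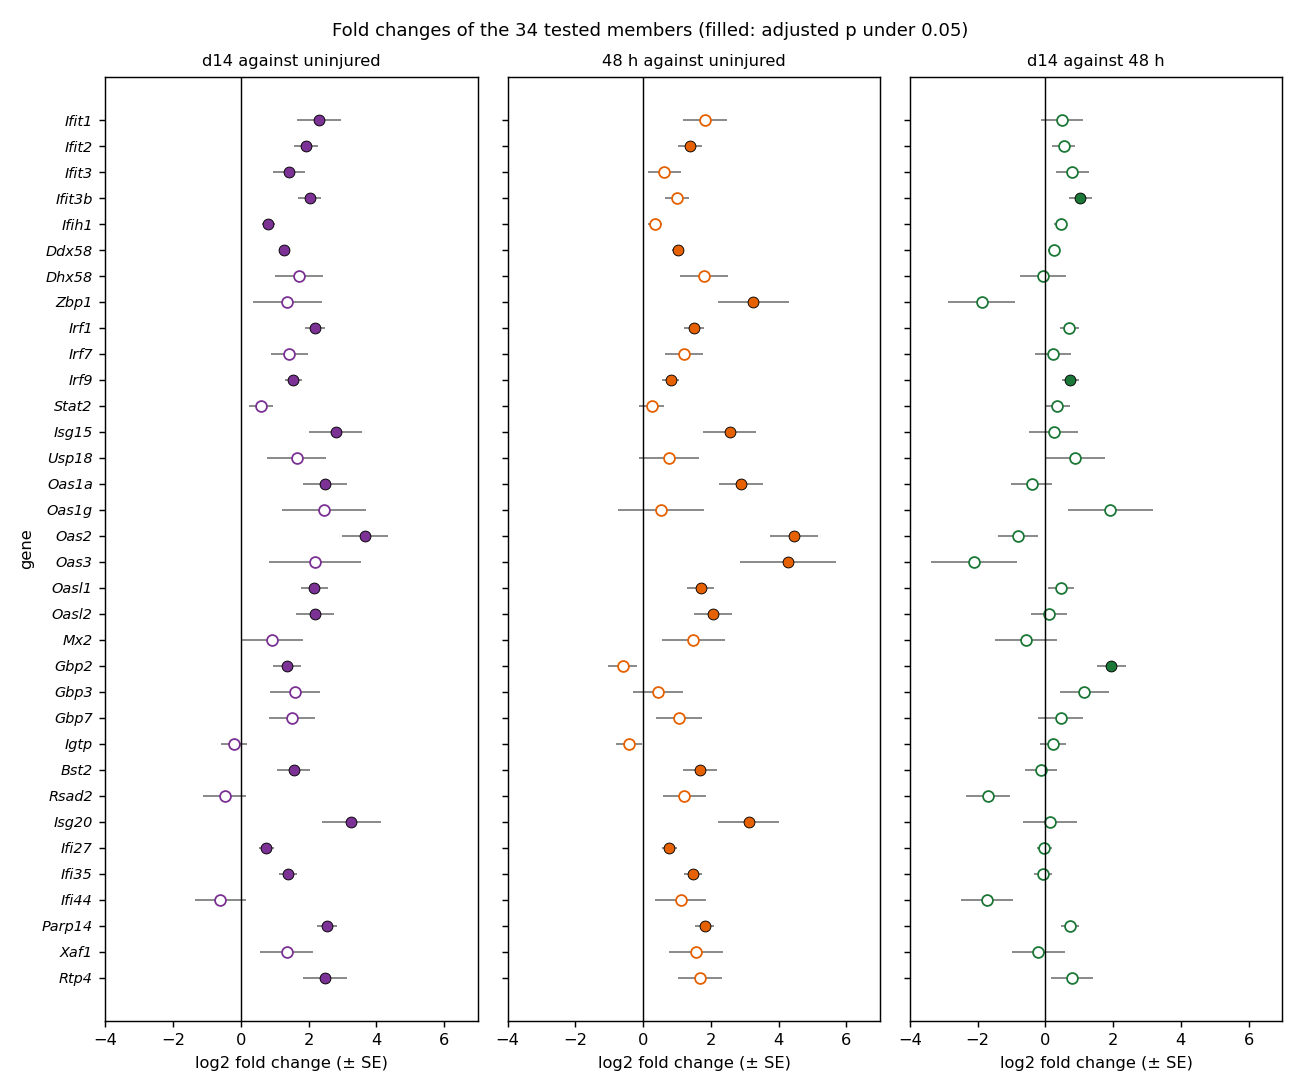
Log2 fold change ± SE of each of the 34 tested genes in the 3 comparisons, with filled points for adjusted p under 0.05. In the comparison of d14 with uninjured cells 20 points are filled and 31 lie above 0, and in that of d14 with 48 h 3 are filled.

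Of the 4 sensors of foreign nucleic acids 2 rose at d14 (Ddx58 and Ifih1) and 2 at 48 h (Ddx58 and Zbp1). Among all genes 25.1% rose at d14 and 17.4% at 48 h. Zbp1 passed the filter on low counts only through the Sox9 groups. Ddx58, which encodes RIG-I (chr4:40203773-40239828, minus strand, GRCm38), was at 48.1, 42.9 and 45.7 CPM at d14, 30.6, 33.2 and 49.6 CPM at 48 h and 16.9, 19.6 and 19.7 CPM in uninjured cells. Every library of both Sox9 groups was above every uninjured one, and the log2 fold change was 1.28 ± 0.17 at d14 (adjusted p = 1.07e-04) and 1.02 ± 0.17 at 48 h (adjusted p = 0.00138). Ifih1, which encodes the long double-stranded RNA sensor MDA5, was at 16.0, 18.3 and 17.4 CPM at d14, 11.7, 10.2 and 15.6 CPM at 48 h and 10.4, 8.07 and 11.02 CPM in uninjured cells. It rose at d14 (0.81 ± 0.20, adjusted p = 0.00568), while at 48 h its replicate 2 lay within the uninjured range (0.35 ± 0.20, adjusted p = 0.206). Zbp1, a sensor of Z-form nucleic acids that can start necroptosis, showed the other order. It was at 0.352, 1.03 and 0.0816 CPM at d14, 1.23, 0.575 and 3.41 CPM at 48 h and 0.282, 0.105 and 0.152 CPM in uninjured cells, so it rose at 48 h (3.25 ± 1.05, adjusted p = 0.0381), most in replicate 3, and overlapped uninjured cells at d14 (1.37 ± 1.01, adjusted p = 0.298). The Zbp1 call was lost with any 1 uninjured library, 48 h library 3 or d14 library 1 left out (adjusted p up to 0.192 over all alternatives). Dhx58, which encodes the RIG-I regulator LGP2, was at 2.11, 2.06 and 0.898 CPM at d14, 1.74, 0.431 and 3.00 CPM at 48 h and 0.478, 0.456 and 0.584 CPM in uninjured cells and passed neither test (adjusted p = 0.067 at d14 and 0.0816 at 48 h).

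The transcription factors that carry the signal rose in part. Irf1 (chr11:53770014-53778374), a primary target of interferon gamma signalling, was at 18.4, 20.98 and 20.6 CPM at d14, 10.9, 6.75 and 18.4 CPM at 48 h and 4.78, 3.90 and 4.42 CPM in uninjured cells. All libraries of both Sox9 groups were above all uninjured ones (d14 2.19 ± 0.30, adjusted p = 1.12e-04; 48 h 1.49 ± 0.30, adjusted p = 0.00352). Irf9 (chr14:55603571-55610030), the DNA-binding part of the complex with STAT2, was at 23.0, 25.7 and 24.1 CPM at d14, 17.4, 8.48 and 17.0 CPM at 48 h and 6.64, 10.4 and 7.87 CPM in uninjured cells. It rose at d14 (1.55 ± 0.25, adjusted p = 4.58e-04) and at 48 h (0.81 ± 0.26, adjusted p = 0.0345), where replicate 2 was in the uninjured range. Leaving out any 1 of uninjured 1, uninjured 3, 48 h 1, 48 h 3, d14 2 or d14 3 ended the 48 h call (adjusted p up to 0.129). Stat2, the partner of Irf9 in that complex, was at 17.2, 22.0 and 16.0 CPM at d14, 18.3, 5.03 and 19.0 CPM at 48 h and 13.5, 12.0 and 11.1 CPM in uninjured cells. Its d14 libraries lay above the uninjured ones without passing the test (0.59 ± 0.37, adjusted p = 0.214), and at 48 h replicate 2 was below all uninjured libraries (0.25 ± 0.37, adjusted p = 0.661). Irf7, which amplifies type I interferon synthesis, was at 9.58, 11.6 and 10.1 CPM at d14, 11.2, 2.30 and 12.8 CPM at 48 h and 3.605, 6.25 and 1.90 CPM in uninjured cells. It passed the test neither at d14 (1.42 ± 0.55, adjusted p = 0.0561), where all libraries were above the uninjured ones, nor at 48 h (1.204 ± 0.55, adjusted p = 0.130).

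All 4 IFIT genes of the set, whose products bind RNA that lacks the marks of the cell's own messages, rose at d14, and 1 of 4 (Ifit2) rose at 48 h. The shares of all genes that rose were 25.1% at d14 and 17.4% at 48 h. These 4 genes lie on chromosome 19 between positions 34550694 and 34650009. Ifit2 was at 9.08, 11.9 and 13.9 CPM at d14, 8.81, 3.88 and 10.8 CPM at 48 h and 3.89, 2.49 and 2.84 CPM in uninjured cells (d14 1.91 ± 0.35, adjusted p = 0.00101; 48 h 1.37 ± 0.35, adjusted p = 0.0139). Ifit1, whose product binds RNA with an incomplete cap, was at 3.31, 3.64 and 3.95 CPM at d14, 2.81, 0.431 and 4.29 CPM at 48 h and 1.06, 0.527 and 0.584 CPM in uninjured cells. The d14 libraries all exceeded the uninjured ones (2.31 ± 0.66, adjusted p = 0.0138), and at 48 h replicates 1 and 3 did while replicate 2 was below them (1.82 ± 0.66, adjusted p = 0.0579). Ifit3, a binding partner of other IFIT proteins, was at 11.9, 14.1 and 10.6 CPM at d14, 10.5, 1.58 and 8.39 CPM at 48 h and 5.47, 5.12 and 3.12 CPM in uninjured cells and rose at d14 (1.42 ± 0.48, adjusted p = 0.0343) but not at 48 h (0.63 ± 0.49, adjusted p = 0.374). Ifit3b was at 6.90, 4.87 and 5.33 CPM at d14, 2.52, 3.02 and 2.86 CPM at 48 h and 1.19, 1.58 and 1.42 CPM in uninjured cells. Its 3 groups did not overlap in any pair, and it rose at d14 (2.03 ± 0.35, adjusted p = 6.05e-04), with 48 h just short of the threshold (1.00 ± 0.35, adjusted p = 0.0515). Among these calls, that of Ifit3 at d14 ended with any 1 uninjured or d14 library left out, that of Ifit1 at d14 without uninjured 2 or uninjured 3, and that of Ifit2 at 48 h without uninjured 2, uninjured 3 or 48 h 3. Ifit3 and Ifit3b share 1198 of 1209 coding bases (99.1%) besides the promoter stretch printed above, so the split of reads between them is uncertain.

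OAS proteins make oligoadenylates that switch on RNase L, an enzyme that degrades RNA. The 6 genes lie on chromosome 5, and 4 rose at d14 and 5 at 48 h, against 25.1% and 17.4% of all genes. Of the 6, Oas1a, Oas1g, Oas2 and Oas3 are among the genes that passed the filter only through the Sox9 groups. Oas2 was at 2.71, 1.58 and 1.06 CPM at d14, 3.37, 1.29 and 4.52 CPM at 48 h and 0.174, 0.105 and 0.127 CPM in uninjured cells. Every library of both Sox9 groups was above every uninjured one (d14 3.66 ± 0.69, adjusted p = 0.00114; 48 h 4.46 ± 0.70, adjusted p = 9.02e-04). Oas1a was at 2.04, 1.46 and 1.39 CPM at d14, 2.24, 0.862 and 3.23 CPM at 48 h and 0.239, 0.246 and 0.381 CPM in uninjured cells, again with no overlap (d14 2.48 ± 0.64, adjusted p = 0.00832; 48 h 2.88 ± 0.65, adjusted p = 0.00732). Oasl1, an OAS-like protein without synthetase activity that in mice holds back Irf7 translation, was at 4.75, 4.51 and 4.30 CPM at d14, 3.31, 2.59 and 3.87 CPM at 48 h and 1.19, 0.667 and 1.14 CPM in uninjured cells and rose at d14 (2.16 ± 0.39, adjusted p = 9.42e-04) and at 48 h (1.70 ± 0.39, adjusted p = 0.00824). Oasl2 was at 8.73, 9.74 and 6.72 CPM at d14, 8.92, 1.44 and 12.3 CPM at 48 h and 1.59, 2.28 and 1.70 CPM in uninjured cells. It rose at d14 (2.18 ± 0.55, adjusted p = 0.00786) and at 48 h (2.07 ± 0.56, adjusted p = 0.0178), although 48 h replicate 2 lay below all uninjured libraries, and its 48 h call ended without uninjured 1, uninjured 3 or 48 h 3. Oas3, the longest of the family, was at 0.598, 0.910 and 0 CPM at d14, 0.898, 0.431 and 4.98 CPM at 48 h and 0.195, 0.0351 and 0.0761 CPM in uninjured cells. At 48 h it rose (4.28 ± 1.42, adjusted p = 0.0425) with replicate 3 far above the others, and leaving out 48 h 3, d14 1, d14 2 or any 1 uninjured library ended the call (adjusted p up to 0.249). At d14, where replicate 3 had no count (at most 0.0816 CPM), it did not pass the test (2.17 ± 1.35, adjusted p = 0.216). Oas1g was at 1.06, 0.871 and 0.735 CPM at d14, 0, 0 and 0.599 CPM at 48 h and 0.0651, 0.351 and 0.0761 CPM in uninjured cells, with no count in 48 h replicates 1 and 2, and passed neither test. Oas1a and Oas1g share 1065 of 1101 coding bases (96.7%), so their values carry the same uncertainty as the Ifit3 pair.

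Isg15, a ubiquitin-like protein that is attached to other proteins (chr4:156199424-156200818), was at 3.34, 2.77 and 1.96 CPM at d14, 3.37, 0.862 and 2.44 CPM at 48 h and 0.326, 0.772 and 0.0761 CPM in uninjured cells. Every library of both Sox9 groups was above the uninjured ones (d14 2.80 ± 0.78, adjusted p = 0.0124; 48 h 2.56 ± 0.78, adjusted p = 0.0303). Leaving out uninjured 1, uninjured 3, 48 h 1 or 48 h 3 ended the 48 h call (adjusted p up to 0.100), and leaving out uninjured 1 ended that of d14. Usp18, the protease that removes ISG15 and also dampens the type I receptor, was at 1.94, 1.58 and 1.52 CPM at d14, 1.74, 0 and 0.830 CPM at 48 h and 0.456, 0.456 and 0.685 CPM in uninjured cells, with no count in 48 h replicate 2 (at most 0.431 CPM). Its 3 d14 libraries were above the uninjured ones without passing the test (1.65 ± 0.88, adjusted p = 0.148).

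The interferon-induced GTPases include guanylate-binding proteins typical of the gamma response. Against 25.1% and 17.4% of all genes, 1 gene of the 5 tested rose at d14 and 0 rose at 48 h, not above the background. That gene was Gbp2 (chr3:142620602-142638008), at 9.96, 18.7 and 11.2 CPM at d14, 4.54, 1.15 and 4.10 CPM at 48 h and 5.47, 6.56 and 3.63 CPM in uninjured cells (d14 1.35 ± 0.41, adjusted p = 0.0203; 48 h -0.61 ± 0.43, adjusted p = 0.322). The d14 call of Gbp2 ended without uninjured 1, uninjured 3 or d14 2. Gbp7 was at 6.72, 14.5 and 12.0 CPM at d14, 7.85, 1.15 and 14.5 CPM at 48 h and 3.19, 6.11 and 2.51 CPM in uninjured cells (d14 1.50 ± 0.67, adjusted p = 0.0969; 48 h 1.05 ± 0.67, adjusted p = 0.280). Gbp3 was at 5.91, 11.4 and 8.03 CPM at d14, 4.82, 0.719 and 5.39 CPM at 48 h and 0.999, 5.90 and 1.57 CPM in uninjured cells, with d14 above the others and adjusted p = 0.102. In all 3 Gbp genes 48 h replicate 2 was below every uninjured library. Igtp, an immunity-related GTPase of vacuole membranes, overlapped between all groups, at 6.86, 13.2 and 9.66 CPM at d14, 10.8, 3.45 and 10.5 CPM at 48 h and 12.3, 13.9 and 7.89 CPM in uninjured cells (d14 -0.20 ± 0.38, adjusted p = 0.714; 48 h -0.42 ± 0.39, adjusted p = 0.461). Mx2 was at 0.634, 0.792 and 0.163 CPM at d14, 1.23, 0.575 and 0.507 CPM at 48 h and 0.0869, 0.316 and 0.431 CPM in uninjured cells, passed no test and is annotated as a polymorphic pseudogene. Mx1 had 0, 33 and 7 counts at d14, 1, 3 and 16 counts at 48 h and 12, 0 and 2 counts in uninjured cells, too few to be tested.

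**Figure D4:**
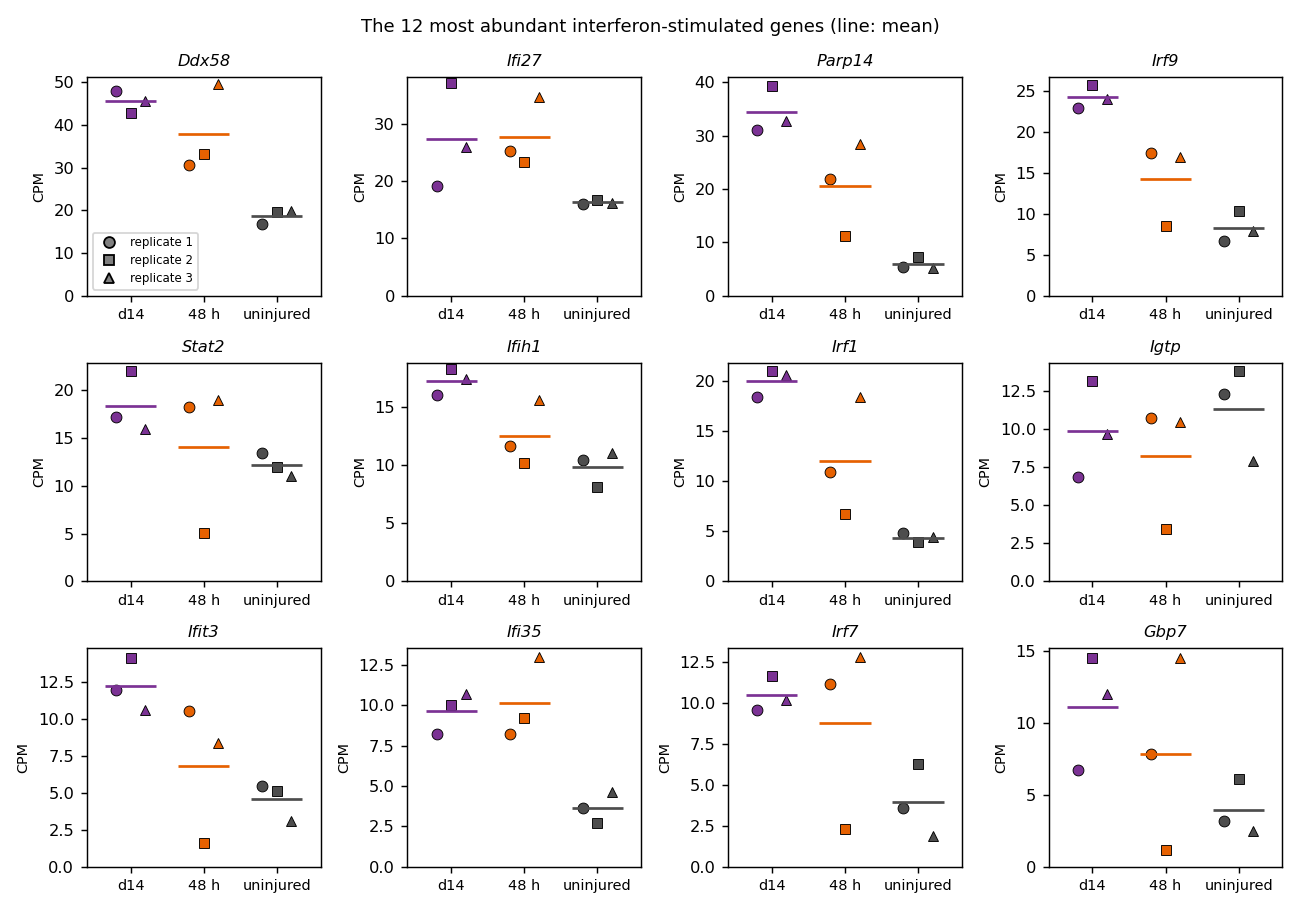
CPM in each library of the 12 interferon-stimulated genes with the highest mean CPM; points are libraries by replicate and lines are group means. Parp14, Irf1, Ddx58, Ifi27 and Ifi35 have all d14 and 48 h libraries above the uninjured ones, while Igtp overlaps in all groups.

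Among the other effectors 6 of 9 rose at d14 and 5 of 9 at 48 h, against 25.1% and 17.4% of all genes. Of the 9, Isg20 passed the filter on low counts only through the Sox9 groups. Parp14 (chr16:35832874-35871544), which attaches single ADP-ribose units to proteins, had the smallest p of the set in the comparison of d14 with uninjured cells. It was at 30.9, 39.2 and 32.8 CPM at d14, 21.8, 11.2 and 28.3 CPM at 48 h and 5.43, 7.23 and 5.13 CPM in uninjured cells. All d14 and 48 h libraries were above all uninjured ones (d14 2.54 ± 0.29, adjusted p = 3.64e-05; 48 h 1.82 ± 0.28, adjusted p = 9.62e-04). Ifi27, a small membrane protein, was at 19.0, 37.1 and 26.0 CPM at d14, 25.2, 23.3 and 34.7 CPM at 48 h and 15.9, 16.7 and 16.2 CPM in uninjured cells and rose by less than a factor of 2 at d14 (0.75 ± 0.23, adjusted p = 0.0184) and at 48 h (0.77 ± 0.23, adjusted p = 0.0256). Ifi35 was at 8.20, 9.98 and 10.7 CPM at d14, 8.19, 9.198 and 12.999 CPM at 48 h and 3.63, 2.70 and 4.62 CPM in uninjured cells. It was among the few genes that 48 h replicate 2 held as high as its group did, and it rose at d14 (1.39 ± 0.27, adjusted p = 0.00143) and at 48 h (1.47 ± 0.27, adjusted p = 0.00238). Isg20, an RNA exonuclease, was at 1.23, 1.19 and 0.898 CPM at d14, 0.505, 1.01 and 1.48 CPM at 48 h and 0.109, 0.211 and 0.0254 CPM in uninjured cells (d14 3.26 ± 0.88, adjusted p = 0.0105; 48 h 3.11 ± 0.89, adjusted p = 0.0227). Bst2, which encodes tetherin and holds budding virus at the membrane, was at 8.45, 9.90 and 7.37 CPM at d14, 12.0, 2.16 and 13.3 CPM at 48 h and 2.35, 3.69 and 2.74 CPM in uninjured cells. It rose at d14 (1.55 ± 0.49, adjusted p = 0.0243) and at 48 h (1.68 ± 0.50, adjusted p = 0.0272), where replicate 2 was below all uninjured libraries. Several of these calls turned on single libraries. At d14 Bst2 lost its call without uninjured 1, uninjured 3, d14 1 or d14 2, and Ifi27 without d14 2 or any 1 uninjured library. At 48 h Bst2 lost it without 48 h 1, 48 h 3 or any 1 uninjured library, Ifi27 without 48 h 3 or any 1 uninjured library, and Isg20 without uninjured 1, uninjured 3 or 48 h 3. Rtp4, a chaperone of membrane receptors, was at 5.70, 4.75 and 5.14 CPM at d14, 3.81, 0.575 and 4.38 CPM at 48 h and 0.456, 1.58 and 0.812 CPM in uninjured cells. It rose at d14 (2.47 ± 0.65, adjusted p = 0.00913) and was just short of the threshold at 48 h (1.69 ± 0.64, adjusted p = 0.0721).

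Rsad2, Ifi44 and Xaf1 passed no test. Rsad2, which encodes the antiviral enzyme viperin, was at 2.36, 4.75 and 3.46 CPM at d14, 24.1, 2.59 and 6.82 CPM at 48 h and 3.52, 5.34 and 5.86 CPM in uninjured cells, so that its d14 libraries were not above the uninjured ones and a single 48 h library stood out. Ifi44 was at 1.44, 1.39 and 1.31 CPM at d14, 10.8, 0.575 and 2.03 CPM at 48 h and 1.76, 2.21 and 2.36 CPM in uninjured cells. It was the only gene of the set whose d14 libraries all lay below the uninjured ones, without passing the test (-0.61 ± 0.76, adjusted p = 0.548), against 28 of 34 genes whose d14 libraries all lay above them (34.4% of all genes tested lay above and 28.9% below). In Rsad2 and Ifi44 the high library was 48 h replicate 1, the one with 715 CPM of endothelial markers, whose part was not tested. Without that library their fold change at 48 h was -0.02 and -0.62. Xaf1, which binds the apoptosis inhibitor XIAP, was at 1.51, 1.62 and 1.93 CPM at d14, 3.65, 0.431 and 1.61 CPM at 48 h and 0.174, 0.913 and 0.914 CPM in uninjured cells. At 48 h 14 of 34 genes lay above all uninjured libraries in every replicate (21.5% of all genes tested) and 0 lay below.

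Levels between genes were compared per length of exon, as TPM (transcripts scaled to a fixed total per library). This TPM carries no TMM scaling, so it ranks genes within a group and does not serve to compare groups. On the TMM-scaled level the mean of Ifi27 was 27.4 CPM at d14 and 27.7 CPM at 48 h. By TPM Ifi27 was the most abundant in every group, at 50.7 ± 10.4 at d14, 26.8 ± 7.96 at 48 h and 16.8 ± 0.886 in uninjured cells (SD, n = 3 each). At d14 Bst2 (26.8 ± 6.89), Ifit3 (19.8 ± 4.90) and Ddx58 (18.4 ± 5.25) came next, with SDs that overlap between neighbours in this order. In uninjured cells Igtp (8.56 ± 2.63), Bst2 (4.90 ± 1.22), Ddx58 (4.02 ± 0.277) and Ifit3 (3.997 ± 1.256) came next, also with overlapping SDs. Gbp2 ranked 6 of 35 at d14, 19 at 48 h and 7 in uninjured cells. Oas3, Zbp1 and Mx1 were at the low end in all groups, below 1 TPM on average.

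Between d14 and 48 h few genes of the set differed. At d14 3 of 34 genes were higher than at 48 h (8.82%, against 16.8% of all genes tested), 0 were lower (16.3% of all genes), and the median log2 fold change was 0.25, against 0.05 over all genes. At unadjusted p under 0.05 6 were higher and 2 lower, DESeq2 called 4 higher and 1 lower (Rsad2) and limma voom 2 higher and 2 lower (Zbp1 and Oas3). Of all genes DESeq2 called 19% higher and limma voom 15.9%. The 3 genes were Gbp2 (1.95 ± 0.43, adjusted p = 0.00619), Ifit3b (1.03 ± 0.34, adjusted p = 0.0388) and Irf9 (0.74 ± 0.25, adjusted p = 0.0432). Gbp2 had 9.96 CPM or more in each d14 library and 4.54 CPM or less in each 48 h library, and it passed the test in all 18 alternative settings. Ifit3b passed in 6 and Irf9 in 11 of the 18: leaving out any library but 48 h 2 ended the Ifit3b call, and leaving out uninjured 3, 48 h 2 or any 1 d14 library ended that of Irf9. Without the TMM scaling 9 genes were higher and 0 lower (43.9% and 6.02% of all genes), with a median of 0.84, against 0.63 over all genes. In 10 of 34 genes the d14 libraries all lay above the 48 h libraries (26.7% of all genes tested), and in 0 they lay below (20.6% of all genes). Without 48 h replicate 2 the median was -0.01, with Gbp2 and Ifit3b higher and Rsad2 and Ifi44 lower. In that fit 15.2% of all genes were higher, and 2645 of all 16469 genes were lower. Without 48 h replicate 3, 7 genes were higher at d14, against 14.8% of all genes, the added ones being Ifih1, Ddx58, Irf1, Oas1g and Parp14. An adjusted p above the threshold does not show that the times were alike.

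Interferon transcripts themselves were near the limit of these libraries. Of 21 interferon genes 18 had no count in any library. Ifng, the gene of interferon gamma, had 13 counts, all in d14 replicate 2, Ifnz had 3 counts in d14 replicate 3 and Ifnab 2 counts in 48 h replicate 3. Ifnb1, the gene of interferon beta, had none, which allows up to 0.0332 CPM over the d14 group, 0.0645 CPM over the 48 h group and 0.0263 CPM over the uninjured group, counting error only. Interferon made by cells outside the sort would not be seen here.

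Of 14 receptor and signalling genes, 6 rose and 1 fell at d14 (42.9% and 7.14%) and 4 rose and 0 fell at 48 h (28.6% and 0%), against 25.1% and 20.7% of all genes at d14 and 17.4% and 11.7% at 48 h. The genes of the gamma receptor rose in both. Ifngr1 was at 47.6, 50.0 and 43.3 CPM at d14, 37.3, 57.6 and 51.9 CPM at 48 h and 22.7, 22.4 and 23.0 CPM in uninjured cells (d14 1.05 ± 0.15, adjusted p = 1.68e-04; 48 h 1.10 ± 0.15, adjusted p = 3.63e-04). Ifngr2 was at 32.8, 31.7 and 34.6 CPM at d14, 27.99, 23.0 and 32.5 CPM at 48 h and 16.9, 14.2 and 14.98 CPM in uninjured cells (d14 1.10 ± 0.14, adjusted p = 8.16e-05; 48 h 0.87 ± 0.14, adjusted p = 0.00124). Ifnar1, a chain of the type I receptor, was at 51.6, 45.6 and 51.9 CPM at d14, 48.2, 26.2 and 41.7 CPM at 48 h and 35.05, 34.4 and 37.8 CPM in uninjured cells and rose at d14 (0.48 ± 0.18, adjusted p = 0.0491). The other chain, Ifnar2, was at 18.5, 20.3 and 16.1 CPM at d14, 29.1, 18.3 and 24.9 CPM at 48 h and 16.9, 12.99 and 15.9 CPM in uninjured cells and rose at 48 h (0.66 ± 0.19, adjusted p = 0.0213). Ifnlr1, the specific chain of the type III receptor, was at 8.20, 5.58 and 7.86 CPM at d14, 2.64, 4.17 and 3.69 CPM at 48 h and 3.26, 2.07 and 1.93 CPM in uninjured cells, higher at d14 than in uninjured cells (1.57 ± 0.34, adjusted p = 0.00299) and than at 48 h (1.06 ± 0.35, adjusted p = 0.0364). Its partner chain Il10rb fell at d14 (-0.68 ± 0.23, adjusted p = 0.0312), but without the TMM scaling 12 genes of this list were higher and 0 lower, against 47.1% and 9.13% of all genes. Tyk2, a kinase at the type I receptor, rose at d14 (0.44 ± 0.15, adjusted p = 0.0275). Jak1, Jak2, Ptpn2, Pias1 and Socs1 passed none. Socs3, a feedback inhibitor of cytokine receptors that answers interleukin-6 type signals as well, was at 29.4, 27.3 and 37.7 CPM at d14, 14.8, 15.2 and 32.3 CPM at 48 h and 0.890, 1.44 and 1.12 CPM in uninjured cells (d14 4.79 ± 0.35, adjusted p = 1.65e-06; 48 h 4.21 ± 0.35, adjusted p = 1.36e-05).

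A list of genes upstream of interferon, beyond those in the set, held nucleic acid sensors, adaptors, and kinases or factors. Of its 15 tested genes, 4 rose and 2 fell at d14 (26.7% and 13.3%) and 8 rose and 1 fell at 48 h (53.3% and 6.67%). The d14 share that rose is close to the 25.1% of all genes, of which 20.7% fell, while at 48 h 17.4% of all genes rose and 11.7% fell. Tmem173, which encodes the DNA-sensing adaptor STING, was at 19.8, 14.6 and 21.2 CPM at d14, 6.40, 6.32 and 11.8 CPM at 48 h and 0.413, 1.30 and 0.939 CPM in uninjured cells, and it rose at d14 (4.42 ± 0.42, adjusted p = 8.17e-06) and at 48 h (3.26 ± 0.41, adjusted p = 2.07e-04). Tlr3, the endosomal receptor of double-stranded RNA, was at 17.0, 16.5 and 16.8 CPM at d14, 7.12, 5.89 and 10.4 CPM at 48 h and 3.65, 1.97 and 3.71 CPM in uninjured cells (d14 2.43 ± 0.29, adjusted p = 4.28e-05; 48 h 1.34 ± 0.29, adjusted p = 0.00523). Both were also higher at d14 than at 48 h (Tmem173 1.16 ± 0.36, adjusted p = 0.0297; Tlr3 1.09 ± 0.28, adjusted p = 0.0126). Eif2ak2, the RNA-activated kinase PKR that halts translation, rose at d14 (1.19 ± 0.15, adjusted p = 6.47e-05) and at 48 h (0.95 ± 0.15, adjusted p = 9.70e-04). Ikbke, a kinase that activates IRF factors, rose at d14 (1.62 ± 0.30, adjusted p = 0.00104). Mavs, the adaptor of RIG-I and MDA5, and Myd88, the adaptor of most Toll-like receptors, rose at 48 h (Mavs 0.67 ± 0.18, adjusted p = 0.0154; Myd88 0.79 ± 0.20, adjusted p = 0.0128). Tlr7, a receptor typical of immune cells, was at 0, 0.158 and 0.109 CPM at d14, 1.51, 1.58 and 5.12 CPM at 48 h and 0.261, 0.386 and 0.102 CPM in uninjured cells, lower at d14 than at 48 h (-4.90 ± 1.09, adjusted p = 0.00616), where the macrophage and neutrophil markers above were also highest; their part was not tested. Trim25, which activates RIG-I, fell at d14 (-0.96 ± 0.14, adjusted p = 1.65e-04) and at 48 h (-0.53 ± 0.14, adjusted p = 0.0145), also without the TMM scaling. Irf5 fell at d14 (-1.29 ± 0.43, adjusted p = 0.0293). Without the TMM scaling 7 genes of this list were higher and 1 (Trim25) lower at d14, against 47.1% and 9.13% of all genes.

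Of 62 tested further genes known to answer interferon, 27 rose and 6 fell at d14 (43.5% and 9.68%), and 23 rose and 3 fell at 48 h (37.1% and 4.84%), against 25.1% and 20.7% of all genes at d14 and 17.4% and 11.7% at 48 h. Their median log2 fold change was 0.79 at d14 and 0.92 at 48 h. Without the TMM scaling 31 were higher and 0 lower at d14 (47.1% and 9.13% of all genes), and of the 6 that fell Parp10, Mov10 and Tdrd7 changed sign and Samd9l was not called. Ly6e, a membrane protein that blocks coronavirus entry, was the most abundant, at 759, 557 and 703 CPM at d14, 465, 265 and 362 CPM at 48 h and 140.0, 103 and 98.8 CPM in uninjured cells (d14 2.56 ± 0.22, adjusted p = 4.75e-06; 48 h 1.68 ± 0.22, adjusted p = 2.65e-04). Parp12, a relative of Parp14, was at 27.2, 28.3 and 28.03 CPM at d14, 14.1, 8.62 and 13.3 CPM at 48 h and 4.67, 4.70 and 3.48 CPM in uninjured cells (d14 2.70 ± 0.21, adjusted p = 1.88e-06; 48 h 1.51 ± 0.21, adjusted p = 3.61e-04). Both were also higher at d14 than at 48 h (Ly6e 0.89 ± 0.21, adjusted p = 0.00941; Parp12 1.19 ± 0.20, adjusted p = 0.00130), as were Tor3a (1.16 ± 0.23, adjusted p = 0.00306), Pml (1.05 ± 0.18, adjusted p = 0.00125), which builds nuclear bodies, and the RNA-editing enzyme Adar (0.60 ± 0.13, adjusted p = 0.00591). Ifitm2, which hinders virus fusion, rose at d14 (1.30 ± 0.13, adjusted p = 1.34e-05) and at 48 h (1.15 ± 0.13, adjusted p = 1.10e-04), as did Helz2 (d14 2.06 ± 0.24, adjusted p = 3.39e-05; 48 h 1.98 ± 0.24, adjusted p = 1.51e-04) and Epsti1 (d14 3.01 ± 0.40, adjusted p = 9.94e-05; 48 h 2.84 ± 0.40, adjusted p = 4.52e-04). Of the Schlafen genes, which include regulators of immune cell growth, Slfn1 was at 0.141, 0.0396 and 0.109 CPM at d14, 2.81, 3.45 and 4.89 CPM at 48 h and 0.0869, 0.421 and 0 CPM in uninjured cells. It was lower at d14 than at 48 h (-5.19 ± 1.13, adjusted p = 0.00568), as were Slfn2 (-1.64 ± 0.39, adjusted p = 0.00835) and Slfn5 (-2.77 ± 0.47, adjusted p = 0.00152). Samd9l, the next most abundant gene of this list, fell at d14 (-0.74 ± 0.15, adjusted p = 0.00189) and at 48 h (-0.69 ± 0.15, adjusted p = 0.00603), while Znfx1 passed no test and Lgals3bp rose at d14 (0.97 ± 0.31, adjusted p = 0.0269) and at 48 h (1.51 ± 0.31, adjusted p = 0.00618). Over all 62 genes 8 were higher and 6 lower at d14 than at 48 h (12.9% and 9.68%), with a median of 0.04. Both shares were below the 16.8% and 16.3% of all genes. Without the TMM scaling 25 were higher and 4 lower in this comparison, against 43.9% and 6.02% of all genes.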

How the data were processed

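Polyadenylated RNA was sequenced from 9 sorted samples, 3 per group. The authors deposited a single gene table of expected counts from RSEM, which are whole numbers and not scaled, with 55385 genes and 92 spike-in rows at 0 counts that were not used. Tools listed without a role, per the submitters' processing notes, are STAR 2.6.1, RSEM 1.2.28, bcl2fastq 2.20, R 3.6.3 and DESeq2; the builds listed are mm10 and GRCh38, and all identifiers are mouse. Neither the annotation release nor the strand setting of counting is given in the labels. RSEM estimates how reads shared by near-identical genes divide, which adds error for such pairs.

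Genes were filtered with filterByExpr (minimum count 10, minimum total 15), libraries scaled by TMM and all 9 fitted with a mean per group in edgeR 4.0.16 (R 4.3.3, quasi-likelihood F-test, robust). P values were adjusted by Benjamini-Hochberg over the 15519 genes of a comparison, with a threshold of 0.05. Alternatives were other scalings and filters, DESeq2 1.42.0, limma 3.58.1 voom with sample weights, only the 2 groups compared, a replicate block and each library left out. The fit without scaling was applied to the other lists after the data were seen. Reads carry no molecular identifiers, so limits from 3 counts cover counting error only.

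The genes of the set, the other lists and the tests were chosen with earlier results of these data known, and no test of a list was made. The values of 1 gene of the receptor and signalling list are not reported here. All 35 genes may be named; shown by library are the 12 of highest mean CPM and all that passed a test, and named besides are the genes of the ligand and receptor lists, from the other lists up to 6 with the smallest p in each comparison and the 4 most abundant, and of each marker list the 2 most abundant and the genes at 0. Dhx58, Usp18, Oas1g, Gbp3, Mx2, Xaf1, Rsad2 and Ifi44 are shown by library, and Mmp9, Parp10, Mov10 and Tdrd7 named, although outside this rule, chosen after their values were seen. Lengths, coordinates and coding sequences came from GENCODE M21 (GRCm38), in which 33 of 35 identifiers had the same version, and promoters from RefSeq (GRCm38.p6). A comparison of proteins within families was planned; identity of the longest coding sequences, aligned globally, was used in its place. TPM was computed from counts and the summed exon length, without TMM scaling.

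Replicate numbers are shared between groups by label only. Deviations of same-numbered libraries correlated at -0.161 to 0.0495, so the numbers were not used to pair libraries.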

Additional observations from a re-analysis of the deposited data

How the results depend on the processing

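Under all 18 alternatives Ddx58, Irf1, Oas1a, Oas2, Oasl1, Ifi35 and Parp14 were called higher at 48 h than in uninjured cells, and at d14 Ifit2, Ifit3b, Ifih1, Ddx58, Irf1, Irf9, Oas1a, Oas2, Oasl1, Oasl2, Isg20, Ifi35, Parp14 and Rtp4 were. Of these, Oas1a, Oas2 and Isg20 passed the main filter on low counts only through the Sox9 groups, so they could enter only where they were higher. No gene of the set was called lower than in uninjured cells in any of them. With 1 library left out, the count of genes higher was 15 to 26 at d14 (20 with all libraries), 7 to 24 at 48 h (16) and 1 to 7 at d14 over 48 h (3, with 0 to 2 lower). In these fits 19.9% to 26.9% of all genes were higher at d14, 12.3% to 17.2% at 48 h and 11% to 15.3% at d14 over 48 h. The median was 1.43 to 1.72 for d14 against uninjured and -0.015 to 0.60 for d14 against 48 h. Without any scaling factor the median was 2.12 for d14 against uninjured and 0.84 for d14 against 48 h. In that fit 9 genes were higher at d14 than at 48 h, against 43.9% of all genes. The median of all genes shifted too, to 0.63 in both. For d14 against 48 h the count was 1 with only those groups in the fit, against 14.5% of all genes. DESeq2 gave 1 lower (3009 of all 15507 genes) and voom 2 lower (2446 of all 15519 genes) with a median of 0.11. The mean summed CPM at d14 and in uninjured cells was 427.7 and 117.8 without scaling, 454.4 and 191.5 without mitochondrially encoded genes, and 284 and 115 without Ddx58. The cause of these changes was not tested. Depth limits 48 h replicate 2 most.

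The replicate numbers do not pair the libraries, and 1 of 9 libraries correlated best with another of its own number. With the number as a replicate block, 18 genes were higher at d14, 9 at 48 h and 1 in d14 against 48 h. Of all genes 23.2%, 14.7% and 14.7% were higher in these comparisons. In d14 against 48 h Dhx58 turned to 0.10.

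Signs of single genes turned 39 times, in genes that passed no test of that comparison with all libraries; the cause was not tested. Without scaling these were Igtp (0.33) and Rsad2 (0.064) at d14 against uninjured, and Dhx58 (0.50), Oas1a (0.18), Mx2 (0.035), Bst2 (0.44), Ifi27 (0.51), Ifi35 (0.47) and Xaf1 (0.37) at d14 against 48 h. With voom they were Oas3 (-0.0040) at d14 against uninjured and Oasl2 (-0.11) and Xaf1 (0.0030) at d14 against 48 h. With 1 library left out, the log2 fold change at 48 h against uninjured spanned -0.14 to 1.255 in Usp18, -0.015 to 1.65 in Rsad2, -0.62 to 1.59 in Ifi44, -0.0093 to 0.61 in Stat2 and -5.22 to 1.62 in Oas1g, whose lowest value rests on 48 h libraries with no count. At d14 against uninjured Igtp spanned -0.452 to 0.0088. At d14 against 48 h the spans were -0.560 to 0.23 in Bst2, -0.18 to 0.59 in Isg20, -2.20 to 0.0064 in Ifi44, -0.63 to 0.65 in Xaf1, -0.19 to 0.58 in Irf7, -0.019 to 0.60 in Stat2, -0.11 to 0.65 in Isg15, -0.34 to 0.64 in Oasl2, -0.015 to 1.22 in Gbp7, -0.10 to 0.43 in Igtp, -0.49 to 0.57 in Dhx58, -0.74 to 0.037 in Oas1a, -0.30 to 0.18 in Ifi27 and -0.215 to 0.16 in Ifi35.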

Other observations

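The 5 tested genes outside all lists whose log2 CPM followed the mean standardised log2 CPM of the set most closely over the 9 libraries were Stk32a, Cybc1, Tmem184b, Map3k14 and Nsd2, at Pearson r = 0.966 to 0.976. This is a description only: the 9 points share 3 groups, their depth and the low 48 h replicate 2, and the genes were picked for the likeness. Tmem184b was at 30.7, 28.9 and 29.5 CPM at d14, 31.1, 11.8 and 26.7 CPM at 48 h and 9.64, 12.0 and 11.7 CPM in uninjured cells. Map3k14, which encodes the kinase NIK of the noncanonical NF-kB pathway, was at 17.0, 17.9 and 16.8 CPM at d14, 14.98, 8.34 and 16.6 CPM at 48 h and 9.38, 7.72 and 8.12 CPM in uninjured cells. In both genes 48 h replicate 2 was within the uninjured range.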
